A study of Mus musculus with 9 samples.

Results

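The genes described here are 10 regulators of the G1 phase of the cell cycle, taken by symbol from the deposited expression table of mouse bone marrow-derived macrophages (BMDMs). They are the D-type cyclins Ccnd1, Ccnd2 and Ccnd3, cyclin E1 (Ccne1), the kinases Cdk4 and Cdk6, the inhibitors Cdkn1a (p21) and Cdkn1b (p27), and the transcription factors E2f1 and Myc. Each symbol matched 1 row, so the set holds 10 of the 55335 rows, and all 10 were among the 11657 genes that reached 1 FPKM in at least 3 of the 9 libraries and were tested. Myc was the only one of them with libraries under 1 FPKM, which it had in 3 of the 6 stimulated libraries.

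In G1, D-type cyclins are made in response to growth factors and activate Cdk4 or Cdk6, which phosphorylate the retinoblastoma protein and so release E2F factors such as E2f1. E2F factors turn on cyclin E1 and the genes of DNA replication, whereas Cdkn1a and Cdkn1b bind cyclin-kinase complexes and hold the cell in G1. Myc, paired with Max, turns on genes of ribosome production and growth, and Cdk4 is a known Myc target. BMDMs divide in M-CSF, and LPS or IFN-γ is known to stop them in G1, with Cdkn1a described as a mediator of the arrest by IFN-γ.

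The study asked how Annexin A5 (AnxA5), a protein that binds membrane phospholipids in the presence of calcium, acts on macrophages under inflammatory stimulation. BMDMs were grown from male C57BL/6 mice aged 4 to 6 weeks in 20 ng/mL M-CSF for 5 days, and every group was treated for 6 h. M+AnxA5 cells were given AnxA5, drawn at 2 µg/mL in the study's scheme, on top of LPS at 1 µg/mL, which TLR4 senses, and of the T and NK cell cytokine IFN-γ at 30 ng/mL. Model cells were given the same LPS and IFN-γ without AnxA5, and Control cells medium alone, with 3 libraries in each group. The study did not state whether these libraries came from separate cultures or mice, so p-values measure the spread between libraries only.

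Expression was given as FPKM, which scales the fragments of a gene to its transcript length and to the library's mapped fragments, so that levels of different genes can be set side by side. The smallest steps between low values corresponded to 25.9 to 36.0 M fragments per M+AnxA5 library, 27.2 to 32.1 M per Model library and 27.2 to 29.9 M per Control library. Macrophage markers were high in each library (Adgre1 between 311 and 621 FPKM, Csf1r between 135 and 354 FPKM), and all 3 T cell markers and all 3 B cell markers stayed under 1 FPKM. S100a8 and S100a9 were between 53.4 and 184 FPKM, although Ly6g, which defines neutrophils, did not exceed 0.109 FPKM. The precursor genes Mpo and Elane reached at most 0.298 FPKM in M+AnxA5 libraries and 0.269 FPKM in Model libraries, against 3.30 to 7.00 FPKM in Control libraries, and the 3 progenitor and mast cell markers summed to 0.845 to 1.57 FPKM with AnxA5 and 0.907 to 1.13 FPKM in Model libraries, against 2.07 to 2.30 FPKM in Control libraries. Of these, Cd34 was lower in stimulated libraries, Kit overlapped between groups, and Cpa3 was higher in them. The 4 fibroblast markers summed to 63.4 to 113 FPKM in M+AnxA5, 73.4 to 112 FPKM in Model and 94.7 to 158 FPKM in Control libraries, overlapping between groups, although Dcn alone was at 2.95 to 5.35 FPKM in M+AnxA5 and 3.24 to 4.64 FPKM in Model libraries, against 1.52 to 2.87 FPKM in Control libraries. Of the 3 dendritic cell markers, Xcr1 was at 2.86 to 3.31 FPKM in M+AnxA5 and 4.48 to 5.12 FPKM in Model libraries, against 0.0348 to 0.0983 FPKM in Control libraries, whereas Flt3 did not exceed 0.0216 FPKM and Zbtb46 0.214 FPKM. The part of these other cell types in the results below was not tested. In bulk RNA, fewer cells that express a gene and less of its RNA per cell cannot be told apart.

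Promoter windows of 7 of the 10 genes were matched in RefSeq (GRCm38.p6). Stretches of 3 are shown because they match patterns searched for Myc with Max, for E2F factors or for p53, whose targets are counted below. The first 2 belong to the kinases, and their capitals mark CACGTG, the E-box bound by Myc with Max. In Cdk6 they also mark TTTNNCGC, a loosened form of the E2F site in which any base may stand at N, here T and A. In the stretch of Cdkn1a the capitals run from 1 CATG to the next CATG 6 bases on, the spacing of the core letters in a p53 site.
Cdk4, chr10:127063285-127063533, plus strand: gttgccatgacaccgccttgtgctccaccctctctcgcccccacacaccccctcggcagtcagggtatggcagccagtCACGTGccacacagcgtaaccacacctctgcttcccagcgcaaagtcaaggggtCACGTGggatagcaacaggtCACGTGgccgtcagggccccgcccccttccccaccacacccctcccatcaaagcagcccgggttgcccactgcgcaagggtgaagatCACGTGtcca
Cdk6, chr5:3343643-3343731, plus strand: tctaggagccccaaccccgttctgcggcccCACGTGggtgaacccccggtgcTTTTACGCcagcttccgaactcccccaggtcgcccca
Cdkn1a, chr17:29090729-29090975, plus strand: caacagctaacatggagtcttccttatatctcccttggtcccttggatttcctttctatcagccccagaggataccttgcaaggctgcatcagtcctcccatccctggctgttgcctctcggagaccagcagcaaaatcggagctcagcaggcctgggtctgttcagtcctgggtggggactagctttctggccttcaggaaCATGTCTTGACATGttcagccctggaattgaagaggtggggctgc

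The motifs were searched on both strands in the 250 bases before each start, and they were chosen with these sequences in view. Cdk4 held CACGTG 4 times, at 172, 118, 98 and 11 bases before its start, whereas 6.02% of all 32851 RefSeq windows held it at least once and 0.0213% of them, 7 windows, held it at least 4 times. Cdk6 held it once, at 220 bases, and TTTNNCGC once, at 198 bases, a motif present in 4.28% of windows. The Cdk6 start lies inside the longer gene of the annotation. The pair of CATG with 6 bases between, present in 0.49% of windows, stood 48 bases before the upstream of the 2 starts given for Cdkn1a. The windows of Ccne1, Ccnd3, Cdkn1b and E2f1 held neither CACGTG nor TTTNNCGC, and each held GGGCGG, the Sp1 box, as did 32.7% of windows. TTCNNNGAA, a form of the STAT site, was in none of the windows of the 7 genes and in 7.02% of all windows. A match describes letters only. Other forms of these sites and the bases after the start were not searched, so the lack of a match does not show that a site is absent.

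LPS and IFN-γ split the set. In the Model group against the Control group, Ccnd2, Ccnd3, Ccne1 and Cdkn1a were higher, Cdk4, Cdk6, E2f1 and Myc were lower, and Ccnd1 and Cdkn1b did not pass the test. Differentially expressed genes (DEGs) were those past a 1.2-fold change whose Benjamini-Hochberg adjusted p in limma, over the 11657 genes, was below 0.05. Fold changes are on log2(FPKM + 1), where the change of a weakly expressed gene comes out too small. The 8 DEGs among 10, which were also the 8 with an unadjusted p under 0.05, stood beside 76.8% and 83.4% of all genes tested, so their number says little about the set. By direction, 4 of 10 were higher, against 16.5% of all genes, and 4 of 10 were lower, against 60.3%. The libraries of both groups did not overlap for the same 8 genes, against 83.8% of all genes tested.

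**Figure D1:**
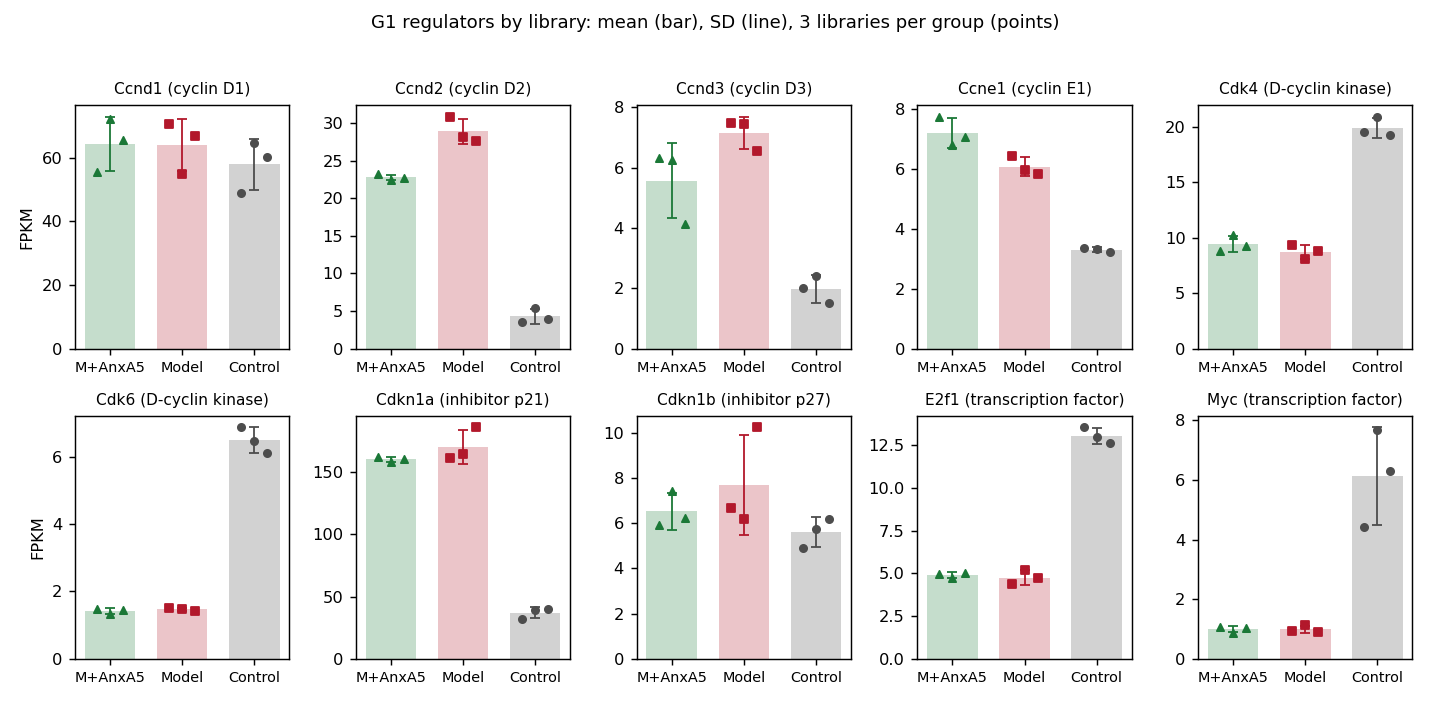
FPKM of the 10 genes in each group, M+AnxA5 (green triangles) left, Model (red squares) centre and Control (grey circles) right; bars are means, lines SDs and points the 3 libraries. M+AnxA5 and Model libraries lie near each other and apart from Control libraries for all genes but Ccnd1 and Cdkn1b, with Cdkn1a at 160 and 170 FPKM in M+AnxA5 and Model libraries against 37.0 FPKM in Control libraries.

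Among the D cyclins, Ccnd2 (GRCm38 chromosome 6, 127125162 to 127152193, minus strand, the build of all positions given here), which macrophages and lymphocytes use beside Ccnd1, had the widest change. Ccnd2 was at 30.8, 28.2 and 27.6 FPKM in Model libraries, against 3.55, 5.44 and 3.88 FPKM in Control libraries. It was 6.73-fold higher on the mean, with a log2 fold change of 2.51 ± 0.11 (SE) and an adjusted p of 7.24e-08, above that of 97.4% of the genes tested. With AnxA5 it was at 23.2, 22.4 and 22.7 FPKM, so that each M+AnxA5 library lay under each Model library. That difference was -0.33 on the log2 scale (95% interval -0.59 to -0.07), with an unadjusted p of 0.0194 in limma and an adjusted p of 0.183, so it did not pass the test. It did pass when the fit held only the 6 libraries of that comparison (adjusted p = 0.0299) and when Control replicate 2 was left out (adjusted p = 0.0252), neither of which alters the difference itself.

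Ccnd3 (chromosome 17, 47505051 to 47599691, plus strand), the D cyclin most used in lymphoid and late differentiating cells, was at 7.48, 7.44 and 6.54 FPKM in Model libraries, against 2.01, 2.41 and 1.51 FPKM in Control libraries. The log2 fold change was 1.46 ± 0.16 (adjusted p = 2.02e-05 in limma). In M+AnxA5 libraries it was at 6.32, 6.25 and 4.12 FPKM. These lay below the Model libraries, with replicate 3 the lowest, and the difference of -0.33 (-0.68 to 0.02) did not pass the test (adjusted p = 0.33).

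Ccnd1 (chromosome 7, 144929931 to 144939925, minus strand), the D cyclin that M-CSF induces in macrophages, was the most abundant of the cyclins in all groups. It was at 55.5, 72.3 and 65.5 FPKM in M+AnxA5 libraries, at 70.5, 54.8 and 66.8 FPKM in Model libraries and at 48.8, 64.6 and 60.3 FPKM in Control libraries. All 3 groups overlapped, and its log2 fold change was 0.14 between Model and Control (-0.16 to 0.45, adjusted p = 0.343 in limma) and 0.01 between M+AnxA5 and Model (-0.30 to 0.32, adjusted p = 0.983). The median of all genes was at -0.45 between Model and Control, and Ccnd1 was 0.59 above that median. The value moved with the setting. Under quantile normalization it was 0.0036 (adjusted p = 0.983 in limma), and with 1 library left out it ran between 0.03 (without Control replicate 1) and 0.25 (without Model replicate 2), passing the test in none of these. Scaled to equal upper quartiles it was 0.40 higher in Model libraries (adjusted p = 0.0243 in limma). Without the 3 libraries numbered 2 it was 0.33 higher (adjusted p = 0.0469 in limma). In each group, the library numbered 2 held the largest share of summed FPKM in Gm23935 and AY036118, taken here as ribosomal.

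Cyclin E1, the partner of Cdk2 at the entry to S phase, and E2f1, an activating E2F factor, moved in opposite directions. Cyclin E2 (Ccne2) and Cdk2 itself, both named after their values were seen, were lower in Model libraries. Ccne2 was at 0.846 ± 0.160 FPKM in Model against 4.42 ± 1.06 FPKM in Control libraries (SD, n = 3 each), and passed the filter only through Control libraries. Cdk2 was at 1.31 ± 0.0902 FPKM in Model against 4.98 ± 1.59 FPKM in Control libraries. Ccne1 (chromosome 7, 38097984 to 38107534, minus strand) was at 6.45, 5.96 and 5.85 FPKM in Model libraries, against 3.37, 3.34 and 3.23 FPKM in Control libraries, a log2 fold change of 0.72 ± 0.06 (adjusted p = 3.9e-06 in limma). With AnxA5 it was at 7.75, 6.80 and 7.08 FPKM, each above the Model libraries. Its difference of 0.21 (0.08 to 0.35) had an unadjusted p of 0.00661 in limma, the lowest of the 10 genes in that comparison, and an adjusted p of 0.107, between 0.0761 and 0.391 under the alternatives tried. E2f1 (chromosome 2, 154559407 to 154569892, minus strand) was at 4.36, 5.19 and 4.73 FPKM in Model libraries, against 13.6, 13.0 and 12.6 FPKM in Control libraries. Its log2 fold change was -1.29 ± 0.06 (adjusted p = 1.02e-07 in limma), and M+AnxA5 libraries, at 4.99, 4.71 and 5.00 FPKM, overlapped the Model libraries.

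Both kinases of the D cyclins were lower after stimulation, Cdk6 by the larger factor. Cdk4 (chromosome 10, 127063534 to 127067920, plus strand) was at 9.32, 8.08 and 8.74 FPKM in Model libraries, against 19.5, 20.9 and 19.2 FPKM in Control libraries, with a log2 fold change of -1.11 ± 0.07 (adjusted p = 5.47e-07 in limma). Cdk6 (chromosome 5, 3341485 to 3531008, plus strand) was at 1.5, 1.47 and 1.43 FPKM in Model libraries, against 6.88, 6.48 and 6.10 FPKM in Control libraries, with a log2 fold change of -1.60 ± 0.06 (adjusted p = 1.59e-08 in limma). On the means, Control libraries held 2.28 times as much Cdk4 and 4.43 times as much Cdk6 as Model libraries. In M+AnxA5 libraries Cdk4 was at 8.76, 10.2 and 9.27 FPKM and Cdk6 at 1.47, 1.33 and 1.46 FPKM, and both overlapped the Model libraries. The differences were 0.10 (-0.06 to 0.26) for Cdk4 and -0.03 (-0.16 to 0.10) for Cdk6.

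The 2 inhibitors parted. Cdkn1a (chromosome 17, 29090976 to 29100727, plus strand), which p53 and other stress signals induce, was at 161, 164 and 186 FPKM in Model libraries, against 31.7, 38.8 and 40.4 FPKM in Control libraries. It was 4.61-fold higher, with a log2 fold change of 2.18 ± 0.09 (adjusted p = 3.54e-08 in limma). M+AnxA5 libraries were at 162, 158 and 161 FPKM, inside or just under the range of the Model libraries, a difference of -0.09 (-0.29 to 0.12). Cdkn1b (chromosome 6, 134920401 to 134925513, plus strand), an inhibitor of resting cells that is controlled largely by protein turnover, was at 6.65, 6.18 and 10.3 FPKM in Model libraries, against 4.92, 5.73 and 6.20 FPKM in Control libraries. Model replicate 3 stood above the other libraries, and the groups overlapped. Its log2 fold change of 0.37 (-0.01 to 0.75) had an adjusted p of 0.0638 in limma. It passed the test at 0.49 without Model replicate 2 (adjusted p = 0.0262 in limma) and at 0.37 with a replicate block. It also passed at 0.45 to 0.75 under TPM, TPM without Gm23935 and AY036118, upper-quartile and quantile scaling. Without Model replicate 3 it was at 0.17. With AnxA5 it was at 5.91, 7.44 and 6.22 FPKM, overlapping the Model libraries, a difference of -0.19 (-0.56 to 0.19) that did not pass the test.

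Myc (chromosome 15, 61985391 to 61990374, plus strand), an early gene of growth factor signalling, had the largest decrease of the 10 genes on the log2(FPKM + 1) scale. It was at 0.943, 1.12 and 0.890 FPKM in Model libraries, against 4.42, 7.68 and 6.31 FPKM in Control libraries. The mean in Control libraries was 6.24 times that in Model libraries, and the log2 fold change was -1.82 ± 0.15 (adjusted p = 3.47e-06 in limma). In M+AnxA5 libraries it was at 1.05, 0.877 and 1.05 FPKM, overlapping the Model libraries, a difference of 0.01 with an interval of -0.33 to 0.35. In the stimulated libraries Myc was among the less abundant genes tested, with 14.0% of them below it, against 50.8% in Control libraries.

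**Figure D2:**
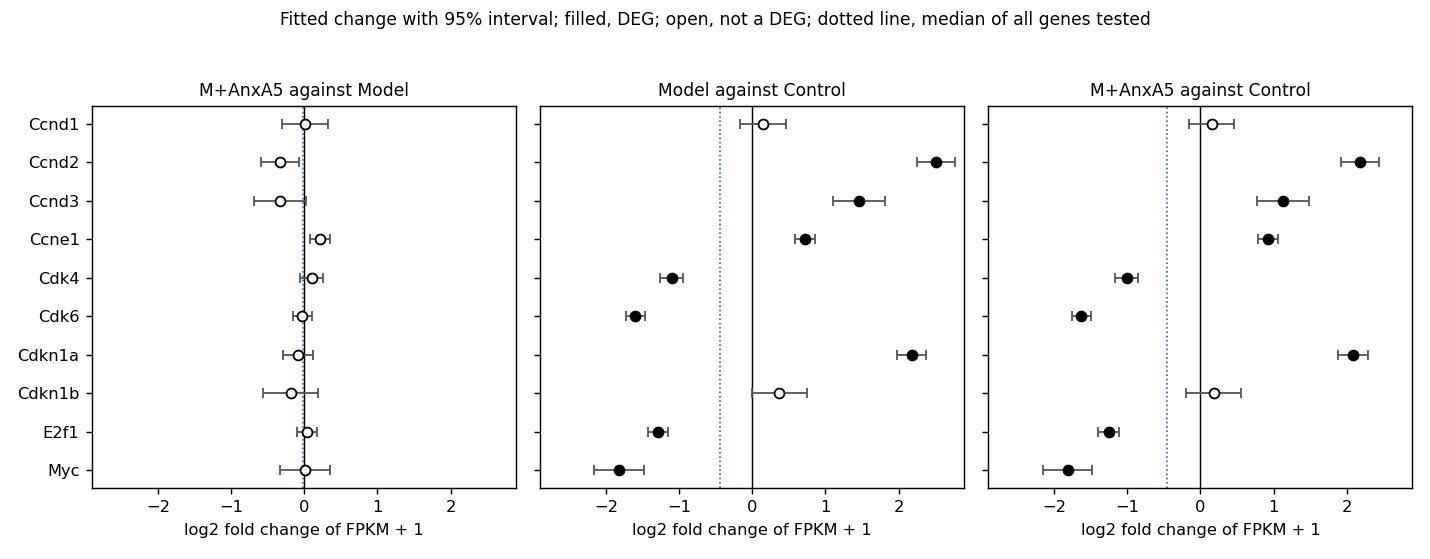
Log2 fold change of FPKM + 1 (x axis) of the 10 genes for M+AnxA5 against Model (left), Model against Control (centre) and M+AnxA5 against Control (right), with 95% intervals; filled points are DEGs and the dotted line is the median of all genes tested. No gene is a DEG at left, where estimates lie between -0.33 and 0.21, and the same 8 genes are DEGs at centre and right, which share the Control libraries.

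Whether AnxA5 altered these regulators under stimulation is the comparison of M+AnxA5 with Model. None of the 10 genes was a DEG, against 2.76% of all genes tested in limma (1.95% higher and 0.815% lower), and 2 of 10 (Ccnd2 and Ccne1) had an unadjusted p under 0.05, against 17.0% of all genes. The libraries of the 2 groups did not overlap for Ccnd2, Ccnd3 and Ccne1, 3 of 10, against 24.8% of all genes. Another 24 settings gave 0 DEGs among the 10 except 2 that gave 1, Ccnd2 in both. On the log2(FPKM + 1) scale the largest interval bound was 0.68 below Model, for Ccnd3. Larger differences on that scale lay outside the intervals of all 10 genes. The bound depends on the scale, and with a pseudocount of 0.1 the Ccnd3 interval ran from -0.83 to 0.07. Against Control, which both comparisons share, M+AnxA5 libraries gave the same signs as Model libraries. There, Ccnd2 was at 2.18, Cdkn1a at 2.09, Ccnd3 at 1.13 and Ccne1 at 0.93, and E2f1 was at -1.25, Cdk4 at -1.01, Cdk6 at -1.63 and Myc at -1.82. These 8 DEGs of 10 stood beside 77.5% of all genes, with 4 of 10 higher against 16.4% and 4 of 10 lower against 61.1%, and the libraries did not overlap for 8 of 10, against 84.0%. In neither comparison with Control did a called gene lose its call or its sign under the settings in which it was tested.

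Scaling a library by a single factor changes the log2 values but not the ratio of 2 genes within that library. Quantile normalization is not of that kind and would change such ratios, which were taken here from the deposited FPKM. Cdkn1a stood at 15.8, 13.7 and 15.0 times the summed FPKM of Cdk4 and Cdk6 in M+AnxA5 libraries, at 14.9, 17.2 and 18.3 times in Model libraries and at 1.2, 1.42 and 1.59 times in Control libraries. The ratio was 11.9-fold higher in Model than in Control libraries and did not overlap between them, with an exact two-sided permutation p of 0.1, the smallest that 3 against 3 allows. M+AnxA5 and Model libraries overlapped (exact permutation p = 0.3). Summed D cyclins were 8.56 ± 0.226, 9.82 ± 0.311 and 2.43 ± 0.324 times the summed kinases (mean ± SD, n = 3) in M+AnxA5, Model and Control libraries, and here the M+AnxA5 libraries, at 8.31 to 8.75, lay under the Model libraries, at 9.47 to 10.1. Over the 11 quantities and 33 comparisons of this kind no p could fall under 0.1, so none can pass a correction. Where the genes of a ratio moved in opposite directions, they already gave its direction. Such a ratio, as Cdkn1a over the kinases or Ccne1 over E2f1, is no separate evidence.

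The makeup of the D cyclins and of the kinases differed between stimulated and Control libraries as well. Ccnd1 made up 69.3% ± 3.47 of the summed D cyclins in M+AnxA5 libraries, 63.9% ± 2.9 in Model libraries and 90.2% ± 1.38 in Control libraries, and Ccnd2 made up 24.7% ± 2.53 in M+AnxA5, 28.9% ± 1.98 in Model and 6.65% ± 0.813 in Control libraries. The Ccnd2 share in M+AnxA5 libraries, at 22.2% to 27.3%, lay under that in Model libraries, at 27.4% to 31.2%. Cdk4 was at 6.66 ± 0.895, 5.95 ± 0.391 and 3.07 ± 0.205 times Cdk6, and Ccne1 at 1.47 ± 0.0722, 1.29 ± 0.172 and 0.253 ± 0.00481 times E2f1, in M+AnxA5, Model and Control libraries. Both ratios overlapped between M+AnxA5 and Model libraries and not between either and Control libraries.

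**Figure D3:**
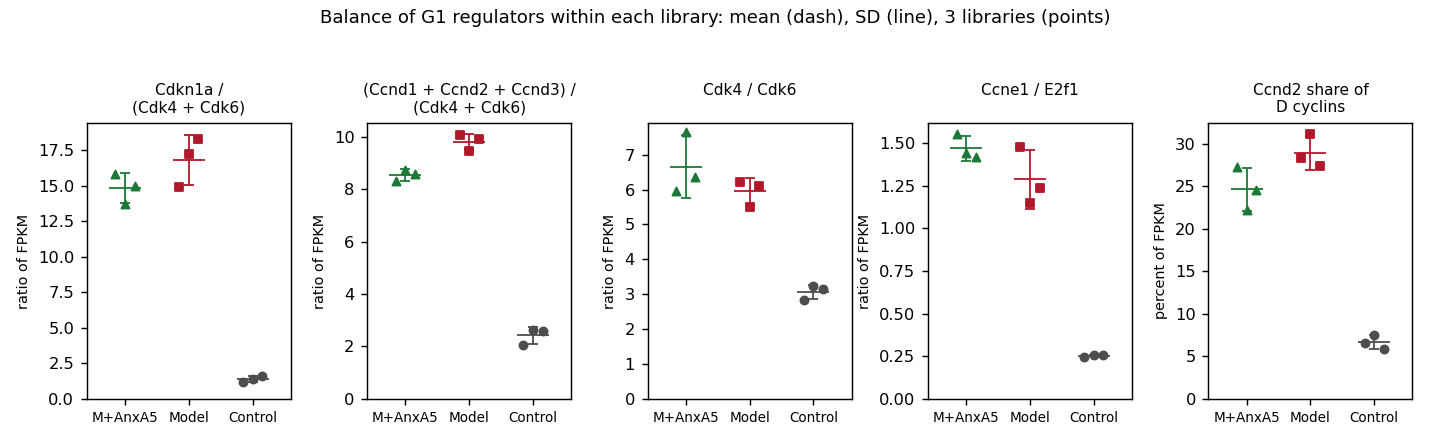
Ratios of FPKM within each library, and the percent of summed D-cyclin FPKM held by Ccnd2, for M+AnxA5 (green triangles), Model (red squares) and Control (grey circles); dashes are means, lines SDs and points the 3 libraries. Cdkn1a over Cdk4 plus Cdk6 is between 13.7 and 18.3 in the 6 stimulated libraries and between 1.2 and 1.59 in Control libraries.

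The order of the levels also changed. In both stimulated groups Cdkn1a came first, followed by Ccnd1, Ccnd2 and Cdk4, with Cdk6 and Myc last, whereas in Control libraries Ccnd1 came first, followed by Cdkn1a, Cdk4 and E2f1, with Ccne1 and Ccnd3 last. Ranges of neighbours overlapped for Ccne1, Cdkn1b, Ccnd3 and E2f1 in M+AnxA5 libraries, for Cdk4, Cdkn1b and Ccnd3 in Model libraries and for Cdk6, Myc, Cdkn1b and Ccnd2 in Control libraries, so their order is not settled. Among the genes tested, Cdkn1a stood above 97.8% of genes in M+AnxA5 libraries and 97.9% in Model libraries, against 90.6% in Control libraries. Ccnd1 stood above 94.2% in each group.

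Exons on the opposite strand overlap 6 of the 10 genes, and whether fragments were counted by strand was not stated. Tspan31 shares 641 exon bases with Cdk4 and was at 37.5, 37.7 and 34.9 FPKM on average in M+AnxA5, Model and Control libraries, above Cdk4 itself. Bysl shares 361 bases with Ccnd3 and was at 2.26 FPKM in M+AnxA5, 2.38 FPKM in Model and 4.40 FPKM in Control libraries. The unnamed gene ENSMUSG00000117050 shares 273 bases with Cdkn1a and was at 3.04 FPKM in M+AnxA5, 3.15 FPKM in Model and 0.483 FPKM in Control libraries, so that it was higher where Cdkn1a was. Oraov1 at Ccnd1, 9330179D12Rik and Gm43126 at Ccnd2 and Gm17590 at Cdk6 did not exceed 1.82 FPKM. What these overlaps add to the values was not tested.

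Beyond the 10 genes, lists of their partners and targets were counted in the same fit, to be read against the 16.5% of all genes tested that were higher, the 60.3% that were lower and the median of -0.45. All 20 E2F targets of S phase tested were lower in the Model group, with a median log2 fold change of -1.66. Mcm7, a subunit of the replicative helicase, was at 1.40 ± 0.102 FPKM in Model libraries, against 12.6 ± 0.294 FPKM in Control libraries (SD, n = 3 each), and Rrm2, of ribonucleotide reductase, at 0.798 ± 0.171 FPKM in Model against 13.7 ± 1.07 FPKM in Control libraries. Of 12 mitotic markers, 11 were lower (91.7%, against 60.3% of all genes), with a median of -1.73. Top2a, a topoisomerase of dividing cells, was at 0.741 ± 0.10 FPKM in Model libraries, against 8.96 ± 1.04 FPKM in Control libraries. The remaining one, the spindle factor Tpx2, named after its values were seen, was at 5.24 ± 0.197 FPKM in Model against 4.22 ± 0.128 FPKM in Control libraries (log2 0.26, just under the fold threshold) and passed under 8 of the 15 settings that left out no single library.

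Of 23 other G1/S regulators tested, 3 were higher (13.0%, against 16.5% of all genes) and 16 lower (69.6%, against 60.3%), shares near those of genes in general. Ccna2, the S-phase cyclin, was at 0.363 ± 0.0377 FPKM in Model libraries, against 6.13 ± 0.636 FPKM in Control libraries, Cdkn2c, an inhibitor of Cdk4 and Cdk6, at 0.186 ± 0.0635 FPKM in Model against 3.86 ± 0.270 FPKM in Control libraries, and the retinoblastoma relative Rbl2 at 2.82 ± 0.0893 FPKM in Model against 8.38 ± 0.460 FPKM in Control libraries. Ccna2 and Cdkn2c were under 1 FPKM in every stimulated library, as were E2f2, E2f6, E2f8 and Skp2. They passed the filter only through Control libraries, where they were higher, so only a decrease could be found for them. The 3 that rose, named after their values were seen, were Rbl1, another relative of the retinoblastoma protein that binds repressor E2F factors, Cdkn1c, the third inhibitor of the family of Cdkn1a, and E2f5, a repressor E2F. Rbl1 was at 22.1 ± 0.603 FPKM in Model libraries, against 8.06 ± 0.621 FPKM in Control libraries. The log2 fold changes were 1.35 for Rbl1, 0.59 for Cdkn1c and 0.33 for E2f5, and E2f5 was no longer a DEG without Control replicate 3 (0.24), Model replicate 1 (0.30) or Model replicate 3 (0.28).

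Of 19 Myc targets 17 were lower (89.5%, against 60.3% of all genes), with a median of -0.90 against -0.45. Npm1, a nucleolar protein of ribosome production, was at 47.1 ± 1.36 FPKM in Model libraries, against 94.7 ± 6.33 FPKM in Control libraries, and Cad, of pyrimidine synthesis, at 1.09 ± 0.0945 FPKM in Model against 5.61 ± 0.552 FPKM in Control libraries. Odc1, the first enzyme of polyamine synthesis and the only one higher (named after its values were seen), was at 28.6 ± 1.17 FPKM in Model against 16.4 ± 1.21 FPKM in Control libraries. The partners and rivals of Myc at Max went both ways, 3 of 9 higher (33.3%, against 16.5% of all genes) and 2 lower (22.2%, against 60.3%). Mxd1, which competes with Myc for Max, was at 15.6 ± 1.04 FPKM in Model libraries, against 1.81 ± 0.133 FPKM in Control libraries, whereas its relative Mxd4 was at 0.792 ± 0.0971 FPKM in Model against 13.0 ± 0.325 FPKM in Control libraries. Mxd4 was under 1 FPKM in every stimulated library and passed the filter only through Control libraries. The Myc relative Mycl, counted as higher, was under 1 FPKM in all Model and Control libraries and passed only through M+AnxA5 libraries. Max, named after its values were seen, was at 35.5 ± 7.60 FPKM in Model against 15.1 ± 2.13 FPKM in Control libraries.

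Of 16 p53 targets other than Cdkn1a, 2 were higher (12.5%) and 9 lower (56.2%), with a median of -0.40, all near the values over all genes. The 2 were Mdm2, which degrades p53, at 69.1 ± 2.53 FPKM in Model libraries against 19.7 ± 1.49 FPKM in Control libraries, and the death receptor Fas, at 14.4 ± 0.808 FPKM in Model against 1.73 ± 0.132 FPKM in Control libraries. Trp53inp1, a stress-induced protein, was at 2.95 ± 0.175 FPKM in Model against 9.97 ± 0.830 FPKM in Control libraries. Of 13 antiproliferative and FOXO-linked genes 5 were higher (38.5%, against 16.5% of all genes), among them Klf6 at 172 ± 3.74 FPKM in Model against 66.4 ± 3.21 FPKM in Control libraries, and 6 were lower (46.2%, against 60.3%), among them Foxo3 at 5.53 ± 0.563 FPKM in Model against 15.9 ± 1.09 FPKM in Control libraries. The others that rose, named after their values were seen, were Gadd45b, Btg1, Btg2 and Ccng2. Of 13 genes of M-CSF receptor signalling, 1 was higher (7.69%, against 16.5% of all genes), the inhibitor Spred1, named after its values were seen, and 6 were lower (46.2%, against 60.3%), so that the list was not lower more often than genes in general. Csf1r, the receptor itself, was at 164 ± 8.84 FPKM in Model against 340 ± 12.6 FPKM in Control libraries.

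With AnxA5, 3 of the 125 list genes tested were DEGs against Model, all higher. That is 2.4%, near the 2.76% of all genes. Mycl, a Myc relative, was at 1.06, 1.17 and 1.25 FPKM in M+AnxA5 libraries, against 0.725, 0.704 and 0.593 FPKM in Model libraries (log2 0.37, adjusted p = 0.0159 in limma). It was under 1 FPKM in all Model and Control libraries, so it passed the filter only through the M+AnxA5 libraries, where it was higher. Plk2, a stress-induced kinase on the p53 list, was at 12.6, 15.3 and 13.9 FPKM in M+AnxA5 libraries, against 8.75, 7.67 and 7.43 FPKM in Model libraries (log2 0.74, adjusted p = 0.0142), and Gdf15, a secreted stress cytokine on the same list, at 8.86, 9.73 and 8.25 FPKM in M+AnxA5 libraries, against 4.21, 3.12 and 2.93 FPKM in Model libraries (log2 1.18, adjusted p = 0.0198). None of the 3 overlapped between the groups. Their calls depended on single libraries, since leaving out replicate 2 or 3 of either the Model or the M+AnxA5 group, 1 at a time, gave an adjusted p of 0.0574 to 0.0744 for Mycl, 0.0585 to 0.0650 for Plk2 and 0.0664 to 0.0833 for Gdf15, and for Gdf15 it was 0.0550 without M+AnxA5 replicate 1. With no filter it was 0.0522 to 0.0701 over the 3 genes, and without the 3 libraries numbered 2 it was 0.172 to 0.225. Mycl also did not pass with a pseudocount of 0.1 (log2 0.70, adjusted p = 0.0521 in limma) or with a replicate block (log2 0.37, adjusted p = 0.0588). Where libraries were left out and the call was lost, the log2 differences themselves stayed at 0.33 to 0.38 for Mycl, 0.65 to 0.74 for Plk2 and 1.08 to 1.23 for Gdf15. No other gene of the lists was a DEG, and the 20 E2F targets had a median of -0.05, against -0.02 for all genes. E2f4, of the other G1/S regulators, was lower with AnxA5 and missed only the fold threshold (log2 -0.24, adjusted p = 0.0407 in limma). It was at 14.6, 13.3 and 15.0 FPKM in M+AnxA5 libraries, against 17.5, 16.8 and 16.7 FPKM in Model libraries.

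**Figure D4:**
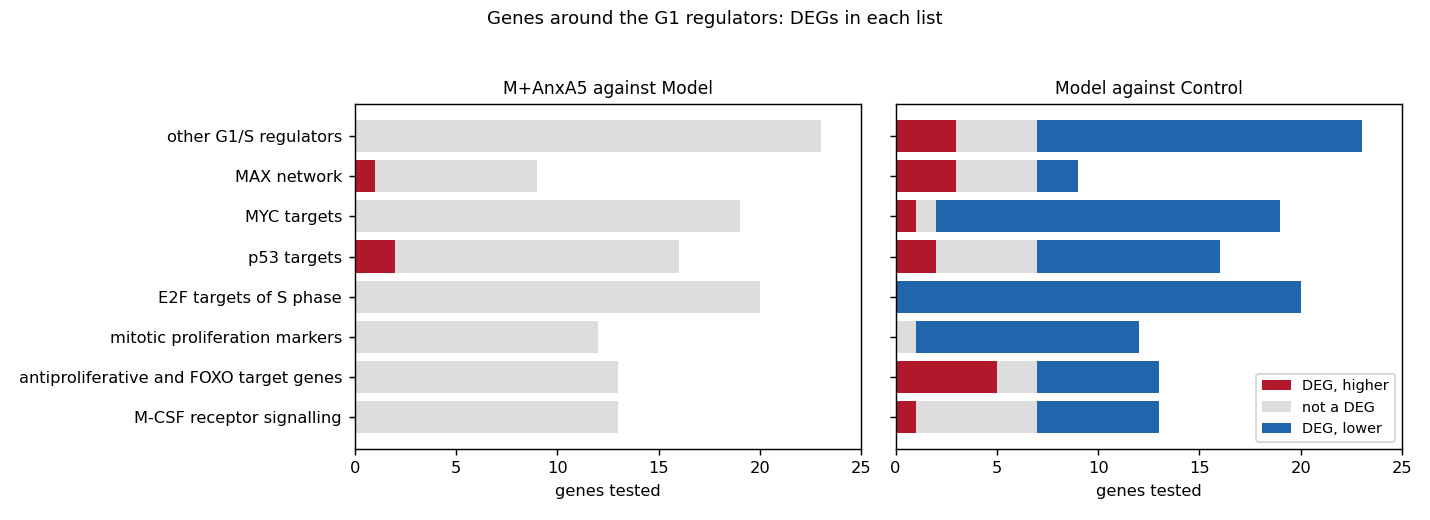
Number of genes tested (x axis) in each list of partners and targets that were DEGs and higher (red), not DEGs (grey) or DEGs and lower (blue), for M+AnxA5 against Model (left) and Model against Control (right). All 20 E2F targets and 11 of 12 mitotic markers are lower at right, and 3 genes in all are DEGs at left.

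The genes most alike to each member were those with the highest Pearson r on log2(FPKM + 1) over the 9 libraries, which for the genes that changed reflects mainly the step between stimulated and Control libraries. Cdkn1a was most like Irgm2, an interferon-induced GTPase, Vcam1, an adhesion molecule, and Pgk1, of glycolysis, with r between 0.998 and 0.999. For Ccnd2 they were the heat shock genes Hspa1a and Hspa1b, near-identical copies whose fragments may be split between them, and Psat1, of serine synthesis (r between 0.997 and 0.998). Psat1 was at 36.4 FPKM on average in M+AnxA5 libraries and 48.4 FPKM in Model libraries, against 6.92 FPKM in Control libraries. Cdk6 was most like Cotl1, Mcm7 and Stard9, E2f1 like Fmnl3, Asap1 and Hexim1, Cdk4 like Elac1, Mrc1 and Nifk, and Myc like Ccdc47, Kif1bp and Psmg2. For Ccne1 the likest were Camta2, Tnfsf9 and Pou3f1 (r = 0.99), and Pou3f1 was at 9.56 FPKM in M+AnxA5 libraries and 5.27 FPKM in Model libraries, against 0.156 FPKM in Control libraries. Ccnd3 was most like Zfp281, Olfr56 and Hivep1 (r between 0.974 and 0.976). Ccnd1 and Cdkn1b, which followed no such step, reached only r = 0.88 with Usf1 and r = 0.89 with Atp6v0a2. Next came Jade2 and Atp8a1 for Ccnd1, and Mmp3 and Immt for Cdkn1b. Mmp3 was at 0.978 FPKM on average in M+AnxA5 libraries, 11.8 FPKM in Model libraries and 0 FPKM in Control libraries.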

How the data were processed

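RNA-seq of mouse BMDMs was analysed in 3 groups of 3 libraries, assigned from the sample labels. The authors deposited FPKM, computed by the sequencing company. The submitters' notes name cutadapt 1.9, STAR, StringTie 2.1.6, DESeq2, edgeR and mm10, with no role or order. Strand use in counting is not given in the sources used here. Coordinates are from GENCODE M21 and promoter windows from RefSeq, both GRCm38.

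Genes that reached 1 FPKM in 3 or more libraries, 11657 in number, were fitted with limma 3.58.1 (R 4.3.3) on log2(FPKM + 1), with 3 groups, all 9 libraries in 1 fit, a mean-variance trend and Benjamini-Hochberg adjustment. DEGs were past 1.2-fold at an adjusted p below 0.05, the study's thresholds. Depth was estimated from the smallest FPKM steps of genes with 1 transcript. The fit was tested on simulated data. Ratios were compared with exact permutation tests (scipy 1.17.1).

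The members and lists were chosen with earlier results of these data known. Of each list, the text names DEGs with the lowest adjusted p, up to 4, or abundant genes where none was called. For each member it names the 3 genes most alike whose mean reached 5 FPKM in any group, with predicted genes left out. Alternatives were other pseudocounts (0.1, 0.5), filters, scalings (TPM, upper quartile, quantile), fits and fold thresholds, a replicate block and left-out libraries.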

Additional observations from a re-analysis of the deposited data

How the results depend on the processing

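The 8 genes called between Model and Control, and between M+AnxA5 and Control, kept sign and call under each of the 24 alternatives in which they were tested. A filter at a mean of 5 FPKM left 7 of the 10 genes, of which 5 were DEGs in either comparison, among 4410 and 4481 DEGs in all. Scaling moved the median of all genes between Model and Control to -0.24 (upper quartile) and -0.10 (quantile), and the split of DEGs from 1925 higher and 7024 lower to 2524 and 5325, and to 2946 and 4209. DEGs between M+AnxA5 and Model, 322 in the main limma fit used here and not the study's own count, numbered 167 with no filter and 79 at a fold over 1.5. They numbered 185 with a replicate block, 11 without the 3 libraries numbered 2 and 121 to 347 with 1 library left out. In the M+AnxA5 group there were 160 when replicate 2 and 121 when replicate 3 was dropped, and in the Model group 140 for replicate 2 and 187 for replicate 3. Of the 10 genes, 1 (Ccnd2) was a DEG with 6 libraries in the fit, and 0 to 1 with 1 library left out.

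Differences near 0 between M+AnxA5 and Model changed sign. Quantile scaling gave -0.0032 for Ccnd1 and -0.00098 for Myc. Without the 3 libraries numbered 2, Ccnd1 was at -0.18, Cdk4 at -0.0026 and Cdk6 at 0.00092. With 1 library left out, Ccnd1 ranged over -0.10 to 0.11, Cdkn1b over -0.31 to 0.02, Myc over -0.027 to 0.055 and E2f1 over -0.014 to 0.090. None passed the test, and the cause was not tested.

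Libraries with the same number deviated together weakly, with r of 0.040 to 0.206 between Model and Control, 0.016 to 0.074 between M+AnxA5 and Control and 0.061 to 0.123 between M+AnxA5 and Model. In that order, r was highest with their own number for 3, 2 and 3 of 3 libraries. The numbers were not treated as pairs because the labels do not say that equal numbers share a culture or animal. Whether they share a batch was not tested. The replicate block gave 9 DEGs among the 10 genes between Model and Control, adding Cdkn1b. A group left with 2 libraries was assumed to vary like the others. Genes near the 1 FPKM floor, such as Myc after stimulation, have folds that the pseudocount shrinks: Myc was at -2.50 with a pseudocount of 0.1.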
